A study of Mus musculus with 3 samples.

Results

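Of 46078 genes in the deposited table, 10 feedback inhibitors of MAP kinase signalling were examined, taken by gene symbol. They are 6 dual-specificity phosphatase genes (Dusp1, Dusp2, Dusp4, Dusp5, Dusp6 and Dusp16), 2 Sprouty genes (Spry1 and Spry2) and 2 Spred genes (Spred1 and Spred2). RNA came from RAW 264.7 cells, a mouse macrophage line derived from a tumour induced by Abelson murine leukemia virus. The cells were at passage 10 to 15, and there were 3 libraries, 1 per condition. The control library is labelled only as control. The HU library came from cells given 0.5 mM hydroxyurea, and the third from cells given the same hydroxyurea with gold nanocages at the same time. The treatment protocol gives 12 hours of culture. The dose of the nanocages is not given in the sources used here, and nanocages without hydroxyurea were not analysed here. The comparisons ask what the drug does to these transcripts and what the nanocages add. No difference below has a replicate check, and each ratio compares 2 libraries.

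MAP kinase cascades carry signals from receptors through Ras, Raf and MAP2K enzymes to ERK, JNK and p38. Dual-specificity phosphatases of the MAP kinase phosphatase class remove both activating phosphates from these kinases. Sprouty and Spred proteins act further up, on the path from receptors and Ras to Raf. Many of these genes are themselves switched on by the kinases they restrain, which closes a negative feedback loop. In macrophages, ERK signalling follows the CSF1 receptor and Toll-like receptors, and DUSP1 is known as a brake on p38 and on inflammatory gene expression. Hydroxyurea blocks ribonucleotide reductase and stalls DNA replication.

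Reads on genes numbered 14990564 for control cells, 20057329 for the HU library and 18644333 for HU plus nanocages. Mitochondrially encoded and ribosomal RNA genes took 3.09%, 3.28% and 3.42% of these reads. Of 9 macrophage markers, 7 had a mean of at least 1 FPKM, with Cd68 at 562.8, 553.27 and 564.99 FPKM, whereas Mrc1 was listed at 0 in each library and Mertk did not exceed 0.04 FPKM. None of 22 markers of fibroblasts, lymphocytes, granulocytes, mast cells and dendritic cells had that mean. Cdkn1a, the p53-induced cell cycle inhibitor, was at 62.96, 411.69 and 401.02 FPKM in control, HU and HU plus nanocages, the order used for all triplets of values below.

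The members covered a wide range of levels, given here as FPKM (fragments scaled to exon length and library total), which allows comparison between genes. In control cells Spred1 was the most abundant at 73.2 FPKM, followed by Dusp4 at 39.88 and Dusp2 at 36.34. Spred2 (24.09), Dusp5 (16.05) and Dusp6 (9.11) came next. The lowest detected were Dusp1 at 5.66, Dusp16 at 4.22 and Spry2 at 3.46 FPKM. Among neighbours in this order, the 95% exact Poisson intervals overlapped for Dusp4 with Dusp2 and for Dusp16 with Spry2. Overlap alone does not settle whether such a pair differs, and ratios between genes of the same library were not computed. These intervals, like all below, cover counting error only. Of the genes tested, 7.69% were above Spred1 and 68.0% were above Dusp1 in control. Spry1 had 0 reads in every library, which allows at most 0.0689, 0.0515 and 0.0554 FPKM. The other 9 members had a mean of at least 1 FPKM over the 3 libraries and entered the comparisons with 10849 genes that reached this mean.

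**Figure D1:**
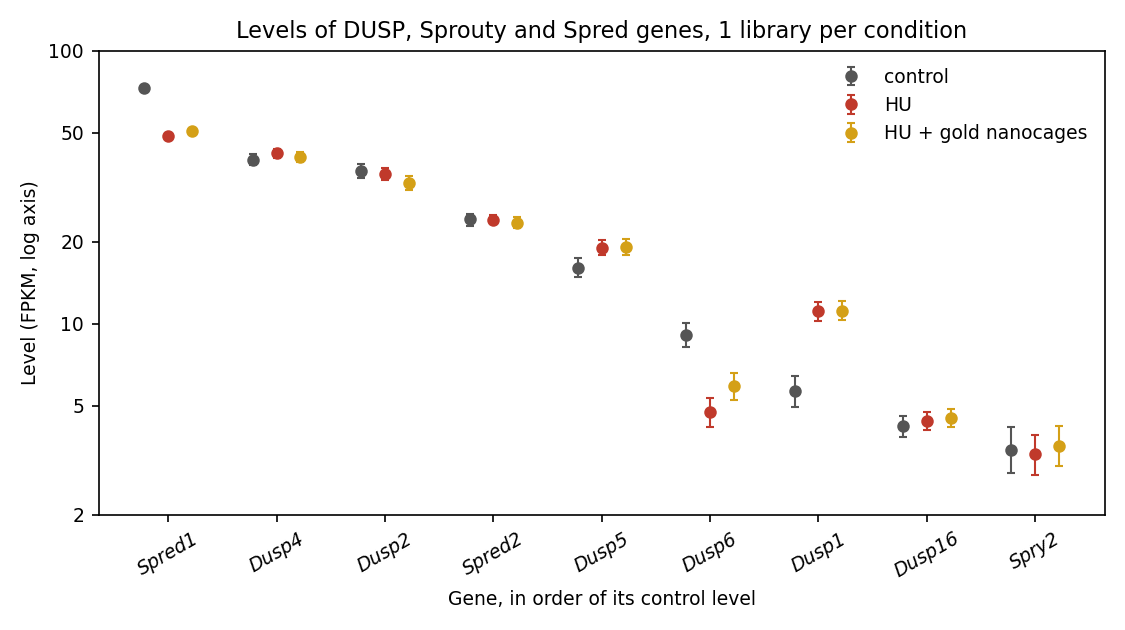
FPKM of the 9 detected members in each library (log axis, genes ordered by control level; bars are 95% exact Poisson intervals of the read count). Dusp1 stands at 5.66 in control and at 11.09 and 11.16 with HU, Dusp6 and Spred1 are highest in control, and Spry1, with 0 reads, is not drawn.

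Hydroxyurea against control separated 3 members clearly. Dusp1 was higher in HU, Dusp6 and Spred1 were lower, and Dusp5 was slightly higher. The intervals of the other 5 detected members included a ratio of 1. Ratios are of CPM (reads scaled to the library total) with exact 95% intervals from the 2 read counts.

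Dusp1 encodes the inducible nuclear phosphatase MKP-1, which acts on p38, JNK and ERK. Its reads numbered 229 for control, 600 for HU and 561 for HU plus nanocages, or 5.66, 11.09 and 11.16 FPKM. Both hydroxyurea libraries were high and lay close together, and neither interval overlapped that of control. The ratio of HU to control was 1.96 (1.68 to 2.29). The gene lies on chromosome 17 at 26505590 to 26562128 of mm10 (minus strand, GENCODE M21), and its principal transcript has 4 exons. On the opposite strand Ergic1 shares 11 exonic bases with it, at 2054, 3072 and 2826 reads. Whether the counting used strand is not given in the sources used here.

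Dusp6 encodes MKP-3, a cytoplasmic phosphatase specific for ERK and a standard transcriptional readout of ERK activity. Its reads were 382, 265 and 307, or 9.11, 4.73 and 5.89 FPKM. Control was the highest library and HU the lowest, with nanocages between them. Dusp6 was 1.93-fold lower in HU than in control (1.64 to 2.26). It lies on chromosome 10 at 99263231 to 99267489 (plus strand), and its principal transcript has 3 exons.

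Spred1 encodes a membrane-associated protein that recruits the Ras-GTPase activator neurofibromin and so restrains Ras. Its 7444, 6628 and 6417 reads correspond to 73.2, 48.71 and 50.73 FPKM, so control was the high library. The value in HU was 1.5-fold lower than in control (1.45 to 1.55). Its large read number makes this the most precise ratio of the group. In bulk RNA, fewer cells that carry a transcript and less of it per cell cannot be told apart. Spred1 lies on chromosome 2 at 117121374 to 117182279 (plus strand), with 7 exons in the principal transcript. Spred2, its close relative, stood at 24.09, 24.07 and 23.44 FPKM, and its ratio of HU to control was 0.999 (0.937 to 1.07). The abundant Spred gene was thus lower in HU while the ratio of the other was bounded within 1.07-fold.

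Dusp5 encodes an inducible nuclear phosphatase specific for ERK. It was at 16.05, 18.97 and 19.09 FPKM, with both hydroxyurea libraries slightly above control and a ratio of HU to control of 1.18 (1.07 to 1.31). An antisense gene, AC137853.2, shares 547 exonic bases with Dusp5 on chromosome 19 (53529109 to 53542431) and was not analysed here. The intervals of Dusp4 and Dusp2, the 2 most abundant phosphatase members, included 1. Dusp4 (MKP-2) was at 39.88, 42.09 and 40.93 FPKM, a ratio of HU to control of 1.06 (0.990 to 1.13). Dusp2, also called PAC-1 and known from activated leukocytes, was at 36.34, 35.45 and 32.78 FPKM, a ratio of 0.976 (0.901 to 1.06). Dusp1, Dusp2, Dusp4 and Dusp5 have all been described as p53 target genes in other cells. Dusp1 and Dusp5 had intervals above 1 here, as did 18.7% of all tested genes, and Dusp2 and Dusp4 did not. A part of p53 in these differences was not tested.

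Dusp16 encodes MKP-7, which acts on JNK and p38 and shuttles between nucleus and cytoplasm. It was at 4.22, 4.41 and 4.52 FPKM, with a ratio of HU to control of 1.05 (0.929 to 1.18). Spry2, the Sprouty gene with reads, was at 3.46, 3.32 and 3.58 FPKM from 108, 139 and 139 reads. It was 1.04-fold lower in HU with the widest interval of the 9 detected members relative to its size (0.801 to 1.35), so a difference of up to about that size was not detectable at this depth.

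**Figure D2:**
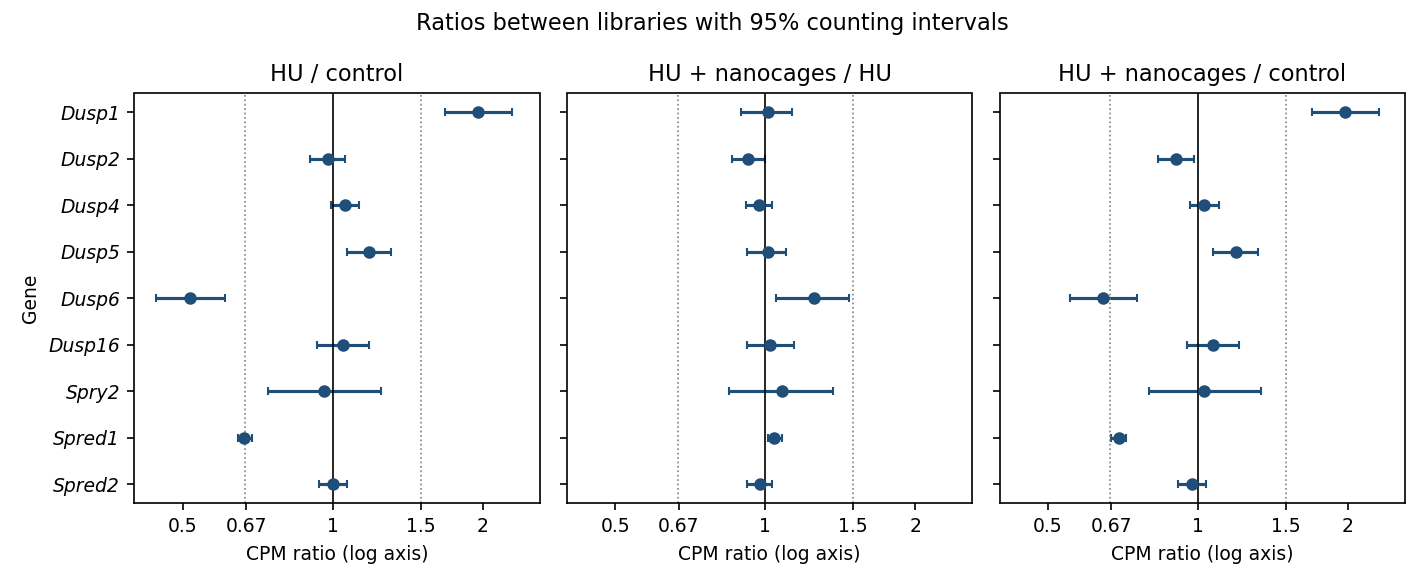
CPM ratio of each detected member between libraries (log axis; bars are exact 95% counting intervals, the solid line is equality and the dotted lines mark 1.5-fold). Dusp1 (1.96) and Dusp6 (0.518) lie outside the dotted lines in HU against control, Spred1 (0.665) lies at the lower one, and no member does so for the addition of nanocages.

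Set against the whole table, the extent of these differences was uncommon, but the number of members with a counting interval off 1 was not. A gene was called at 1.5-fold or more on the scale of FPKM plus a pseudocount of 1, which understates ratios of low genes. In HU against control, 3.0% of 10849 genes were called higher and 1.93% lower. Of the 9 detected members, Dusp1 was called higher (log2 ratio 0.86) and Dusp6 lower (-0.82), or 11.1% of members on each side. Each of these shares stands for a single gene. Spred1 missed the call narrowly, at 1.49-fold lower on this scale. Dusp1 ranked 167 from the top of all tested genes. Dusp6 ranked 109 and Spred1 213 from the bottom, so each lay within the outer 2% of genes on its side.

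The counting intervals give a different picture of the same members. Intervals lay above 1 for 2 members and below 1 for 2, or 22.2% each, beside 18.7% and 20.1% of all tested genes. That share is near the background, and the median log2 ratio of the members was 0.00 beside -0.0076 for all tested genes. Among protein-coding genes alone, a background added after the data were seen, 2.39% were called higher and 1.37% lower.

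**Figure D3:**
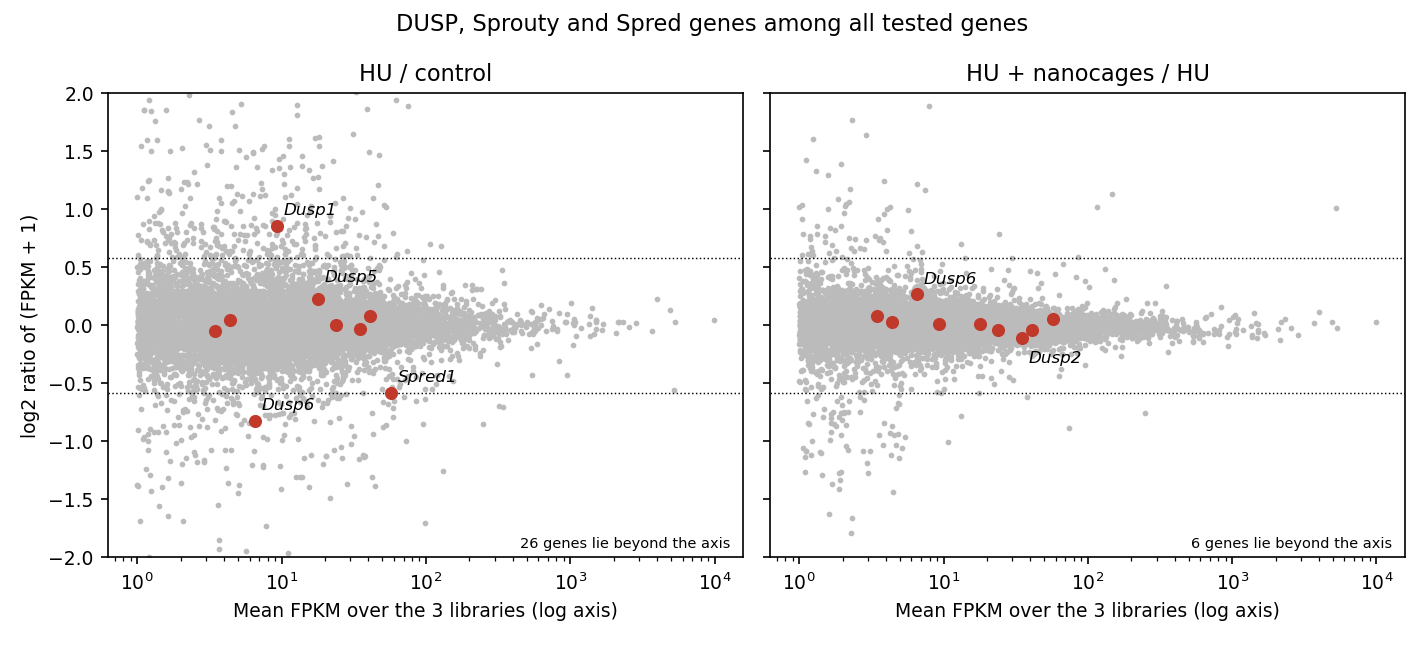
Each grey point is 1 of the 10849 tested genes, with mean FPKM over the libraries (log axis) against the log2 ratio of FPKM plus 1; red points are the 9 detected members and dotted lines mark 1.5-fold. Dusp1 (0.86) and Dusp6 (-0.82) lie outside the dotted lines for HU against control and Spred1 (-0.58) just inside, while all members lie inside them for the addition of nanocages.

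In the summed phosphatase transcripts, Dusp1 took a larger and Dusp6 a smaller share in HU than in control. The 10 genes of the MAP kinase phosphatase class, which adds Dusp7, Dusp8, Dusp9 and Dusp10 to the 6 members, summed to 116.9, 124.3 and 122.2 FPKM. Dusp4 and Dusp2 together held most of this sum, with Dusp4 at 34.1%, 33.9% and 33.5% and Dusp2 at 31.1%, 28.5% and 26.8%. Dusp1 went from 4.84% in control to 8.92% and 9.13%. Dusp6 held 7.79% in control, 3.80% in HU and 4.82% with nanocages. The nuclear inducible phosphatases (Dusp1, Dusp2, Dusp4 and Dusp5) made up 83.8%, 86.6% and 85.1%. The cytoplasmic ERK phosphatases (Dusp6, Dusp7 and Dusp9) made up 11.7%, 8.19% and 9.38%. Within the cytoplasmic group, Dusp6 was 66.7%, 46.5% and 51.4% and Dusp7 33.3%, 52.8% and 48.4%. The 4 Sprouty and Spred members summed to 100.8, 76.1 and 77.75 FPKM, of which Spred1 was 72.7%, 64.0% and 65.2%.

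**Figure D4:**
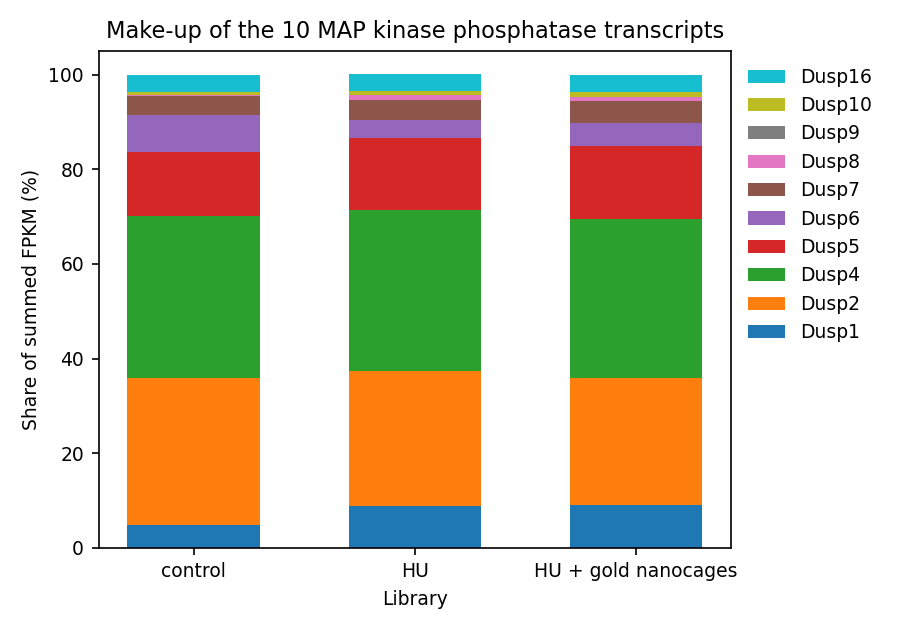
Share of each gene in the summed FPKM of the 10 MAP kinase phosphatase genes (bars from 0 to 100%, 1 bar per library). Dusp4 and Dusp2 form the largest blocks in every library, Dusp1 widens from 4.84% to 8.92% with HU and Dusp6 narrows from 7.79% to 3.80%.

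HU plus nanocages against HU showed no member at 1.5-fold or more. This comparison uses the same HU library as HU against control, so their values are not independent. Of all tested genes, 0.664% were called higher and 0.747% lower, and of protein-coding genes alone 0.0524% and 0.105%. Dusp6 was the member furthest apart, at 5.89 FPKM with nanocages against 4.73 without. The library without them stood at 0.802 of the level with them (0.678 to 0.949). On the log2 scale of FPKM plus 1 its difference was 0.27, and 3.11% of tested genes had a higher one. Spred1 was 1.04-fold higher (1.01 to 1.08), an interval that included 1 when libraries were scaled by their upper quartile. Dusp2 had a ratio of 0.925 (0.856 to 0.999), an interval that included 1 when mitochondrial and ribosomal RNA genes were left out of the totals.

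The remaining members were close to equal in the libraries with and without nanocages. Dusp1 had a ratio of 1.01 (0.895 to 1.13), so its level was bounded within about that range of HU alone. The ratio was 1.01 (0.917 to 1.10) for Dusp5, 0.973 (0.916 to 1.03) for Dusp4. Dusp16 was at 4.52 against 4.41 FPKM, and its interval included 1. Spred2 was at 0.974 (0.917 to 1.03) and Spry2 at 1.08 (0.844 to 1.37). Intervals above 1 were found for 22.2% of the detected members and below 1 for 11.1%, beside 8.35% and 7.78% of all tested genes. Among all tested genes with an interval off 1, 51.8% lay above it, and 41.7% with upper quartile scaling. With 9 members the shares stand for 2 genes and 1 gene. The median log2 ratio was 0.01 beside 0.0038 for all tested genes.

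HU plus nanocages against control uses the same control library as HU against control, so the values stand side by side and are not independent. Dusp1 was 1.97-fold higher (1.69 to 2.31) and was the member called higher, beside 3.27% of all tested genes. No member was called lower, beside 1.98% of genes, as Dusp6 was 1.55-fold lower by CPM (1.33 to 1.80) but 1.47-fold on the scale used for the call. Spred1 was 1.44-fold lower (1.40 to 1.49). Dusp5 had a ratio of 1.19 (1.07 to 1.32). Dusp2 was 1.11-fold lower (1.02 to 1.20), an interval that excluded 1 here and not in HU against control. Whether these 2 ratios of Dusp2 differ rests on the direct comparison of the libraries with and without nanocages, given above. Intervals lay above 1 for 22.2% of the detected members and below 1 for 33.3%, beside 19.6% and 20.1% of genes.

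The sequences before the start sites are shown for the members that stood apart in HU. These members were picked after their ratios were known, and a link between promoter letters and direction was not tested. Each is the 250 bases before the RefSeq start (GRCm38.p6, the assembly of mm10), 5′ to 3′ on the gene's strand. The windows are chr17:26508473-26508722 (minus) for Dusp1, chr19:53528895-53529144 (plus) for Dusp5, chr10:99262981-99263230 (plus) for Dusp6 and chr2:117120821-117121070 (plus) for Spred1. The GENCODE start of the principal transcript is the same for Dusp6, 47 bases upstream for Dusp1, 36 upstream for Dusp5 and 303 downstream for Spred1. The Dusp1 gene as annotated begins 53.7 kb upstream of its RefSeq start, so the window shown is not the one before the outermost Dusp1 start. Capitals mark matches to any motif searched except the GC box.
Dusp1: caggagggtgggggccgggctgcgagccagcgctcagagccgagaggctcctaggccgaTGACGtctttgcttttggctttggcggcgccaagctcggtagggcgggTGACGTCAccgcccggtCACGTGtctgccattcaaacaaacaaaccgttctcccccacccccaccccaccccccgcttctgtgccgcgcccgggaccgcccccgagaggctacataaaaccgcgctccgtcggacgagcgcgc
Dusp5: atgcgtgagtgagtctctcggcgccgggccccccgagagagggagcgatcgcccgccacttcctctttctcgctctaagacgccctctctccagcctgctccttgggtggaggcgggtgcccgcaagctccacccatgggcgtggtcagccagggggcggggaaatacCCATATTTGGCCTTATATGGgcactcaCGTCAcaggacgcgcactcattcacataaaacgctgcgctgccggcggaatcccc
Dusp6: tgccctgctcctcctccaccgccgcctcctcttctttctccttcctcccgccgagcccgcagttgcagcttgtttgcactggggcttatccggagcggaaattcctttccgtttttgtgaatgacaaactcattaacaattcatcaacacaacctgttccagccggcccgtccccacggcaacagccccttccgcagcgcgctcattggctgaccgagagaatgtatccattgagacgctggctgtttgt
Spred1: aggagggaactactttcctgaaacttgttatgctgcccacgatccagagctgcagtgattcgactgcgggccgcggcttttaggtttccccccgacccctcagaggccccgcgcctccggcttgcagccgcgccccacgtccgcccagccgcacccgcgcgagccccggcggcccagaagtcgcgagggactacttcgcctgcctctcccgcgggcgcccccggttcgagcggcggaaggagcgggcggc
The Dusp1 window holds a cyclic AMP response element (CRE), the site of CREB and ATF factors, as TGACGTCA from 143 to 136 bases before the start. It also holds an E-box, CACGTG, from 126 to 121 bases before the start, and a further CRE half-site. The Dusp5 window holds 2 CArG boxes, the site of serum response factor, which lie next to each other from 82 to 63 bases before the start, and a CRE half-site.

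Motifs were searched on both strands in the promoters of 9 members found in the RefSeq table, which has 32851 windows of the same length; Dusp4 was not among them. The full CRE (TGACGTCA) occurred in 1.55% of all windows and, among members, in Dusp1. Its half-site (TGACG, which the full CRE contains) occurred in 17.8% of windows and in Dusp1, Dusp5, Dusp16 and Spred2. The CArG box was present in 1.47% of windows and in Dusp5, and the E-box (CACGTG) in 6.02% and in Dusp1 and Dusp2. The GC box (GGGCGG) was present in 32.7% of windows and in 7 members. No member window matched the AP-1 site (TGANTCA, 6.75% of windows), the ETS site (CCGGAA, 12.0%), the p53 half-site (7.13%) or the NF-kB site (7.25%). The member windows were rich in G and C, from 56.0% in Spred2 to 70.8% in Spred1, beside a median of 52.4% over all windows. Their ratio of observed to expected CG pairs ran from 0.61 in Spred2 to 1.00 in Spred1, beside a median of 0.37. The CRE, its half-site, the E-box, the GC box and the ETS site contain CG. The shares over all windows were not matched for CG content. Beside Dusp1 and Dusp5, which were higher in HU, the CRE half-site was in Dusp16 and Spred2. Their ratios of HU to control were 1.05 (0.929 to 1.18) and 0.999 (0.937 to 1.07). Dusp2, which shares the E-box with Dusp1, had a ratio of 0.976 (0.901 to 1.06). A match describes letters in this window and not binding.

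Other dual-specificity phosphatase genes were mostly low or near equal. Dusp7, the other cytoplasmic ERK phosphatase with a mean of at least 1 FPKM, was at 4.55, 5.38 and 5.55 FPKM, a ratio of HU to control of 1.18 (0.998 to 1.40). Dusp8, a JNK and p38 phosphatase named after its values were seen, did not reach that mean. It had 20, 117 and 110 reads, or 0.27, 1.20 and 1.21 FPKM, and was 4.37-fold higher in HU (2.71 to 7.42). In this gene, as in Dusp1, both hydroxyurea libraries were high and near each other. Dusp10 had 37, 57 and 60 reads, and Dusp9 had 0, 4 and 1.

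Of 14 atypical dual-specificity phosphatase genes, which lack the kinase-binding domain of the MAP kinase phosphatases, 8 were measured. None was called in HU against control, and intervals lay above 1 for Dusp3 and Dusp14 (25%, beside 18.7% of all tested genes) and below 1 for none. Dusp3, also called VHR, was at 29.76, 36.07 and 36.5 FPKM, a ratio of 1.21 (1.15 to 1.28). Dusp14 rests on 57, 113 and 130 reads, with a ratio of 1.48 (1.07 to 2.07). Spred3, the third Spred gene, was 1.51-fold lower in HU (1.20 to 1.90), at 1.78, 1.18 and 1.28 FPKM. Spry3 had 0 reads in each library, and Spry4 was not analysed here.

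Of 9 measured MAP kinase genes, which include those of the kinases that the phosphatase members act on, none was called in HU against control. Mapk6, which encodes the atypical kinase ERK3, had a ratio of 0.904 (0.866 to 0.944). Of 6 measured MAP2K genes, Map2k3, an activator of p38, was called higher at 46.98, 71.31 and 67.47 FPKM (1.52-fold, 1.44 to 1.6). Map2k4, which activates JNK and p38, was lower in control, at 0.799 of its HU level (0.735 to 0.868). Map2k7, which activates JNK, had a ratio of HU to control of 1.18 (1.10 to 1.26). These were the 3 MAP2K genes with intervals above 1 (50%, beside 18.7% of all tested genes), and none lay below (beside 20.1%).

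Further up, 13 genes of Ras activation and Raf had a median log2 ratio of -0.10, with none called. Intervals lay above 1 for 2 and below 1 for 6 (15.4% and 46.2%, beside 18.7% and 20.1% of all tested genes). Hras was the furthest apart at 10.63, 15.65 and 15.76 FPKM (1.47-fold higher, 1.33 to 1.63). Sos2, a Ras exchange factor, was 1.28-fold lower (1.17 to 1.41). Of 9 measured MAP3K genes none was called, and Map3k7, which encodes TAK1, had a ratio of 1.27 (1.19 to 1.35) while that of Map3k3 was 0.852 (0.797 to 0.911). Csf1r, the receptor for the main macrophage growth factor, was at 293.93, 272.08 and 261.34 FPKM (1.08-fold lower in HU, 1.06 to 1.10). The 3 measured genes of the list of receptors and ligands were all receptors, and none was called. Csf1, the gene of a ligand of that receptor, did not reach a mean of 1 FPKM and was named after its values were seen. It had 6, 66 and 91 reads, a ratio of HU to control of 8.22 (3.58 to 23.2). Of 8 kinases activated by MAP kinases none was called, with 1 interval above and 5 below 1 (12.5% and 62.5%, beside the same 18.7% and 20.1%). Mknk2, a kinase of the translation factor eIF4E, had a ratio of 1.32 (1.24 to 1.40).

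Among other inhibitors of the pathway, Ppm1d alone was called in HU against control. Of 8 measured further inhibitors of receptors and Ras none was called, and 3 had intervals below 1 (37.5%, beside 20.1% of all tested genes) and none above. Cbl, a ubiquitin ligase for receptors, was 1.22-fold lower in HU (1.16 to 1.29), and the Ras-GTPase activator gene Rasa3 was 1.20-fold lower (1.10 to 1.30). With nanocages Rasa3 was 1.18-fold higher than in HU (1.09 to 1.27). Of 7 measured phosphatase genes of other families that act on MAP kinases, 1 was called. Ppm1d, which encodes the p53-induced phosphatase WIP1 that acts on p38, was at 13.14, 26.19 and 25.74 FPKM (1.99-fold higher in HU, 1.82 to 2.19).

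Other genes that respond to ERK signalling lay on both sides in HU. Of 15 measured, 8 had intervals above and 5 below 1 (53.3% and 33.3%, beside 18.7% and 20.1% of all tested genes), and the median log2 ratio was 0.19. The AP-1 genes Fosl1 (30.6, 52.95 and 56.75 FPKM) and Fos (37.18, 60.54 and 56.62 FPKM) were called higher, at 1.73-fold (1.59 to 1.88) and 1.63-fold (1.52 to 1.74). Myc was called lower, at 36.38, 23.78 and 24.25 FPKM (1.53-fold, 1.42 to 1.65). Egr3 missed the call, with a ratio of 1.62 (1.23 to 2.15). The ETS factor genes Etv4 and Etv5, named after their values were seen and known with Dusp6 as outputs of ERK, were on the low side with it. Etv5 was at 12.83, 9.55 and 9.73 FPKM (ratio 0.745, 0.674 to 0.823). Etv4 was at 1.48, 0.80 and 1.26 FPKM on 69, 50 and 73 reads (ratio 0.542, 0.369 to 0.791). In HU plus nanocages against HU the ratio of Etv4 was 1.57 (1.08 to 2.3). Ier3, an immediate-early gene of the same list that was also named after its values were seen, was further apart on the call scale and went on down with nanocages, at 88.47, 60.83 and 46.66 FPKM. Its ratio was 0.688 (0.639 to 0.740) for HU against control and 0.767 (0.706 to 0.833) for nanocages with HU against HU. The genes of this list on the low side therefore had no single pattern across the 3 libraries.

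Among the GADD45 genes, which encode stress-induced activators of the JNK and p38 branch, Gadd45b was called higher in HU, at 14.81, 23.27 and 23.85 FPKM (1.57-fold, 1.36 to 1.82). Gadd45g had 1, 47 and 65 reads and reached the mean of 1 FPKM only through the hydroxyurea libraries, so its call is not counted here. Gadd45a did not reach that mean. Of 5 genes of AU-rich mRNA decay, the mechanism that shortens the life of Dusp1 and Tnf transcripts, Zfp36l1 was called higher at 7.40, 12.1 and 13.71 FPKM (1.63-fold, 1.43 to 1.87). Zfp36, which encodes tristetraprolin, was 1.16-fold lower in HU (1.11 to 1.21), at 162.49, 140.03 and 139.75 FPKM.

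**Figure D5:**
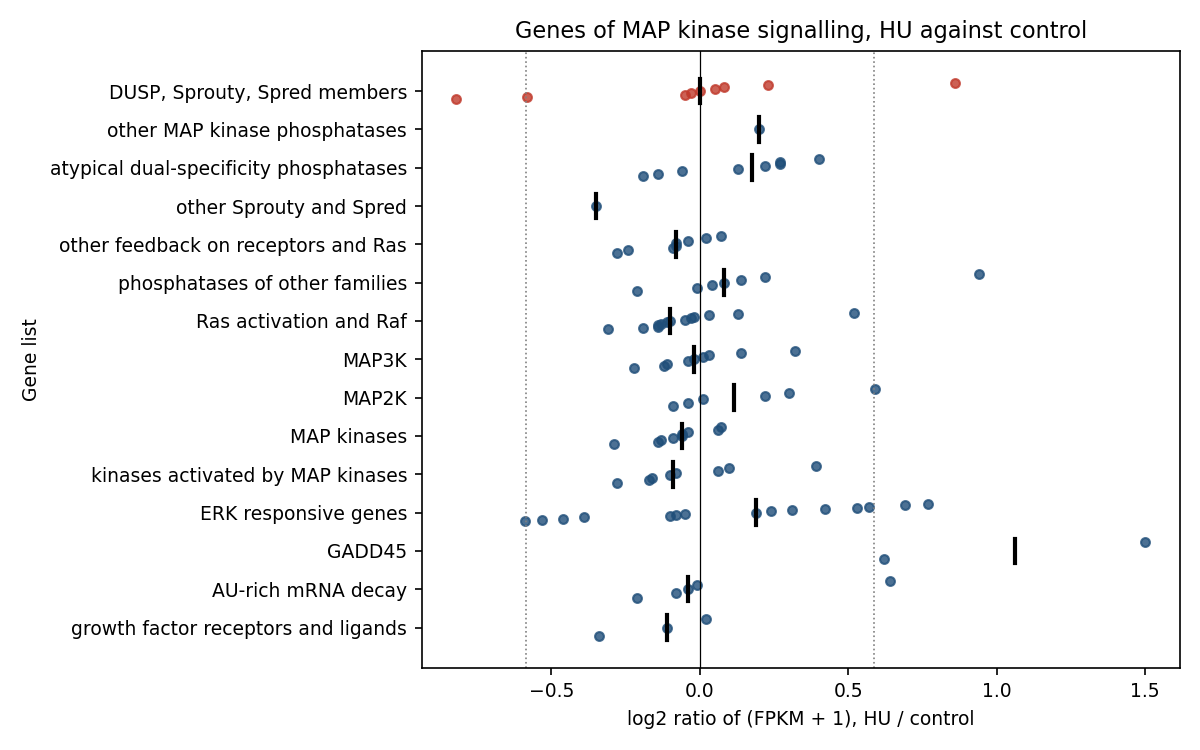
Log2 ratio of FPKM plus 1 for HU against control, with 1 point per gene that has a mean of at least 1 FPKM, by list (black ticks are list medians, dotted lines mark 1.5-fold). The 9 detected members spread from -0.82 to 0.86 around a median of 0.00, and the 9 MAP kinase genes lie between -0.29 and 0.07.

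Members that share an annotation term could stand on opposite sides in HU. In the deposited annotation 6 members carry the term for protein tyrosine/serine/threonine phosphatase activity, and 4 carry negative regulation of the ERK cascade (Dusp1, Dusp6, Spry1 and Spry2). Dusp1 and Dusp6 both belong to the latter group and stood on opposite sides in HU. A relation between annotation and direction over all members was not tested. Genomic span differed from 2.22 kb in Dusp2 to 99.7 kb in Spred2. Dusp2 (chromosome 2, 127336159 to 127338376), Dusp4 (chromosome 8, 34807297 to 34819894) and Dusp5 have principal transcripts of 4 exons. Dusp16 lies on chromosome 6 at 134715468 to 134792625 and Spred2 on chromosome 11 at 19924375 to 20024026. Spry1 (chromosome 3, 37639947 to 37644598) and Spry2 (chromosome 14, 105891947 to 105896819) span under 5 kb each.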

How the data were processed

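RNA of 3 RAW 264.7 cultures, 1 per condition, was sequenced. The authors deposited 1 table with whole-number read counts per gene, not normalized. The deposited FPKM values equal count divided by exonic gene size and summed count for 100% of genes (tolerance 0.0051). Per the file headers, a further column gives each gene's exonic length in bases, an other kind of value. The submitters' processing notes name HISAT2 2.0.1, HTSeq 0.6.1, SAMtools 0.1.18, bcl2fastq 2.17.1.14, cutadapt and DESeq with build mm10, without roles; the sources used here give neither strand setting nor annotation release.

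The members, lists and call rule were chosen with earlier results of these data known. Duplicate symbols were represented by the identifier with the most reads. Ratios are of CPM with exact (Clopper-Pearson) 95% intervals from both counts (SciPy 1.17.1). These were tested on simulated data with counting error only, the error they assume. That test does not cover spread between cultures. Calls use 1.5-fold on FPKM plus 1 where the mean over libraries reached 1 FPKM. No p-value was computed, as each group is 1 library. Named genes were all members, and from each other list up to 4 genes with the largest absolute log2 ratio in HU against control and any called with nanocages against HU; of these the text gives a part. Alternatives varied pseudocount, filter, fold and scaling (edgeR 4.0.16 TMM, DESeq2 1.42.0 size factors, upper quartile). A read stood for 0.0667, 0.0499 and 0.0536 CPM, which sets the precision. Locations are from GENCODE M21. A gene that the rule names among the MAP kinases is not reported here.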

Additional observations from a re-analysis of the deposited data

How the results depend on the processing

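For the members, 110 of 120 recomputed counts and medians stayed within the limits set for them, and 10 moved. In HU against control, the number called lower went from 1 to 2 with a pseudocount of 0.1 FPKM and with the lower fold threshold, by the addition of Spred1, and to 0 with a pseudocount of 5 FPKM. With a threshold of 2-fold, 0 members were called higher and 0 lower in that comparison, and 0 higher in HU plus nanocages against control. In the latter comparison, the number called lower went from 0 to 1 with a pseudocount of 0.1 FPKM and to 2 with the lower fold threshold. For HU plus nanocages against HU, intervals above 1 went from 2 to 1 with upper quartile scaling, and intervals below 1 from 1 to 0 when mitochondrial and ribosomal RNA genes were left out of the totals. The direction of Dusp1 and Dusp6 against control held under each alternative run, which was bound to follow. Pseudocount, filter and fold threshold cannot reverse a direction, and the scalings moved the totals too little to do so for these genes. Of 1887 recomputed values of single members and other lists, 130 moved and none with a call changed sign. For single members with a call that too was bound to follow. No paired analysis was possible because each condition is 1 library. Depth limits Spry2 most among detected members, and the lack of replicate cultures limits all of them.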
